A study of Mus musculus with 24 samples.

Results

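The genes described here are those of metallothioneins and zinc handling in the hippocampus of mice that drank corticosterone overnight. The 7 genes were *Mt1*, *Mt2*, *Mt3*, *Mtf1*, *Slc30a1*, *Slc30a3* and *Slc39a1*, and their probes were found by matching the transcript accession of each microarray probe to RefSeq gene symbols. All 7 genes were represented, by 9 of the 56605 probes, among 23787 genes that the array named in this way. *Mtf1* had 3 probes and every other gene had 1. Where a gene had several probes, the brightest was taken as its reference probe.

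The study used 48 male Swiss-Webster mice, 12 weeks old, and measured total RNA of the hippocampus from each mouse on 24 two-colour Agilent arrays. Treated mice received corticosterone, the main glucocorticoid hormone of rodents, at 100 µg/ml in drinking bottles that were put in just before the 12 hours of the dark phase, when mice are active. The treatment is described as lasting 12 hours. All mice, controls included, drank hydroxypropyl-β-cyclodextrin at 0.45%, the agent that dissolves the steroid. The hippocampus was taken in hour 1, 5 or 9 of the following light phase from 8 control and 8 treated mice per hour. The dose of a mouse depended on how much it drank, treated mice and controls were brothers from shared litters, and the labels do not say which mice shared a litter. Each array carried 1 control mouse labelled with Cy3 (green) and 1 treated mouse labelled with Cy5 (red), always in that order. A constant difference between dyes at a probe therefore enters every comparison of treated with control mice and cannot be told apart from a constant effect, whereas it cancels when hours are compared.

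Metallothioneins are small, cysteine-rich proteins that bind zinc and copper and buffer the free metal in the cell. *Mt1* and *Mt2* are made in many tissues, in the brain largely by astrocytes, and are classical targets both of zinc, through the metal-responsive transcription factor encoded by *Mtf1*, and of glucocorticoids, through the glucocorticoid receptor. *Mt3* encodes a brain-enriched metallothionein that is not known for induction by metals. Zinc leaves the cytosol through SLC30 transporters and enters it through SLC39 transporters. *Slc30a1* encodes ZnT1, which exports zinc across the plasma membrane and is itself a target of MTF-1. *Slc30a3* encodes ZnT3, which loads zinc into synaptic vesicles, in the hippocampus chiefly those of mossy fibres, and *Slc39a1* encodes ZIP1, an importer.

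The 3 metallothionein genes lie next to each other on chromosome 8 of the GRCm38.p6 assembly. *Mt3* spans chr8:94152607-94154148, *Mt2* spans chr8:94172618-94173567 and *Mt1* spans chr8:94178883-94180327, with 18469 bases between *Mt3* and *Mt2* and 5315 bases between *Mt2* and *Mt1*. The sequences below are RefSeq promoter windows of that assembly, from 250 bases before to 50 bases after an annotated start, all on the plus strand. For *Mt1* and *Slc30a1* that start lies inside the span of the gene, downstream of its outermost one. They are shown because *Mt1*, *Mt2* and *Slc30a1* are known targets of MTF-1 and *Mt3* is the member of the cluster they are compared with. Capitals mark the core of the metal response element, searched on both strands as the letters TGCACNC and TGCGCNC, which cannot match at the same place.
Mt1, chr8:94178839-94179138: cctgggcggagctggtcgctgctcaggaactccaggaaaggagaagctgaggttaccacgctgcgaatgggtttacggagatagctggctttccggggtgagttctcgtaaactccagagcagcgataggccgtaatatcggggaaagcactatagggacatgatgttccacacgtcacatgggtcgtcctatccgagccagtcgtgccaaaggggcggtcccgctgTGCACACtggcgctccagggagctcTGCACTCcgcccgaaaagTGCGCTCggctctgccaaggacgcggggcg
Mt2, chr8:94172368-94172667: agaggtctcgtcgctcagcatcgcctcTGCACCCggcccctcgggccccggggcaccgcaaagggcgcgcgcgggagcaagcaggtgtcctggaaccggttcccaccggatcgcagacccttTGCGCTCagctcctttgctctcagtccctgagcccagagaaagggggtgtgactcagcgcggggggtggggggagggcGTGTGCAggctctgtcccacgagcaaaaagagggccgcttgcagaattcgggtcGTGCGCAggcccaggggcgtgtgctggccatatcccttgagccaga
Mt3, chr8:94152357-94152656: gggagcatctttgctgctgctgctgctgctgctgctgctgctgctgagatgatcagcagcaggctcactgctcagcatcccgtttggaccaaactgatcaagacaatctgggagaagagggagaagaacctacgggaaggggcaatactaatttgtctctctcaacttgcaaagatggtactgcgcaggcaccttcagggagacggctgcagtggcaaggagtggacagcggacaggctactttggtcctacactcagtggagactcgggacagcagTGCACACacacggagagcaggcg
Slc30a1, chr1:191906531-191906830: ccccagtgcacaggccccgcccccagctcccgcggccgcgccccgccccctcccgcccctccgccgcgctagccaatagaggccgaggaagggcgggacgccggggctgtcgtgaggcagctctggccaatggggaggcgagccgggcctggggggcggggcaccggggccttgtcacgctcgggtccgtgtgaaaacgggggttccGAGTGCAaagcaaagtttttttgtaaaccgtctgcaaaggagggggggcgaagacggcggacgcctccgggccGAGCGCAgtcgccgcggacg
The window of *Mt2* held 4 matches, that of *Mt1* held 3, that of *Slc30a1* held 2 and that of *Mt3* held 1. Of 32851 promoter windows of the same length, 25.7% held at least 1 match, 1.97% held 3 or more and 0.517% held 4 or more. The windows of *Mtf1* and *Slc39a1* held none, and the 2 windows of *Slc30a3* held 1 match and none. The letters AGAACA, which make up part of the glucocorticoid response element and overlap neither metal response core, were searched on both strands too. They were in none of the 4 windows printed above, once in the window of *Mtf1*, once in 1 of the 2 windows of *Slc30a3* and in 19% of all windows. A match is a description of letters, and a site that lies outside the window is not covered.

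All 9 probes stood well above background in both channels of all 24 arrays, and none of their spots was saturated or carried an outlier mark. Over whole arrays, between 60.8% and 67.2% of probes in the Cy3 channel and between 64.0% and 73.5% in the Cy5 channel stood well above background. The arrays lay on 3 slides that each held all 3 hours. Markers of hippocampal neurons were detected, with mean intensities of 2584 for *Prox1* of dentate granule cells and 7770 for *Wfs1* of CA1 pyramidal cells. Intensities of different probes depend on the probe and are not compared between genes below.

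*Mt1* and *Mt2* were both far higher in treated mice in hour 1, just after the dark phase. The normalized intensity of *Mt1* ran from 36139 to 53946 with a median of 45699 in the 8 control mice, and from 94371 to 109768 with a median of 102324 in the 8 treated mice. The intensity of *Mt2* ran from 29132 to 43802 with a median of 31851 in control mice, and from 84700 to 109768 with a median of 97707 in treated mice. For both genes the lowest treated mouse stood above the highest control mouse. The log2 difference was 1.18 ± 0.057 (SE, n = 8 arrays) for *Mt1*, a 2.27-fold higher level, with an adjusted p of 7.48e-22 in limma's separate channel test. For *Mt2* it was 1.5 ± 0.079, a 2.83-fold higher level, with an adjusted p of 3.33e-20. By the p value of this test *Mt1* ranked number 2 and *Mt2* number 4 of 56605 probes.

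In hour 5 both genes were still higher in treated mice, and *Mt2* had lost more of its difference. *Mt1* ran from 46257 to 60045 with a median of 52811 in control mice and from 93520 to 106713 with a median of 97674 in treated mice. *Mt2* ran from 39906 to 61100 with a median of 52430 in control mice and from 64884 to 90443 with a median of 70765 in treated mice. The groups did not overlap for either gene, although the gap was narrow for *Mt2*. The log2 difference was 0.89 ± 0.057 for *Mt1* (1.85-fold, adjusted p = 5.71e-17) and 0.50 ± 0.079 for *Mt2* (1.41-fold, adjusted p = 5.19e-06), and both were positive on 8 of 8 arrays. Within slides, the mean log2 ratio of *Mt2* at this hour ran from 0.27 to 0.98, and that of *Mt1* from 0.74 to 1.11.

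In hour 9 the 2 genes stood on opposite sides of the control level. *Mt1* ran from 57799 to 66488 with a median of 61011 in control mice and from 77192 to 91455 with a median of 82489 in treated mice, still without overlap. Its log2 difference was 0.43 ± 0.057 (1.34-fold, adjusted p = 3.25e-07) and positive on 8 of 8 arrays. *Mt2* ran from 59008 to 75411 with a median of 69652 in control mice and from 47335 to 64140 with a median of 53393 in treated mice, so that treated mice were now the lower group, with some overlap. The log2 ratio of *Mt2* was negative on 8 of 8 arrays, between -0.67 and -0.17, with a mean of -0.32 ± 0.079 (0.799-fold, adjusted p = 0.00266). The lower level of *Mt2* depended on the normalization between arrays: without that step, or with only the average intensities of arrays equalized, the difference was -0.14 with adjusted p values of 0.172 and 0.199, and with the authors' own log2 ratios it was -0.13 with an adjusted p of 0.242. It also missed the threshold when slide 1, which held 4 of the 8 arrays of this hour, was left out (-0.28, adjusted p = 0.0941). The higher level of *Mt1* at this hour passed under all 15 alternatives, with differences from 0.37 to 0.62.

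**Figure D1:**
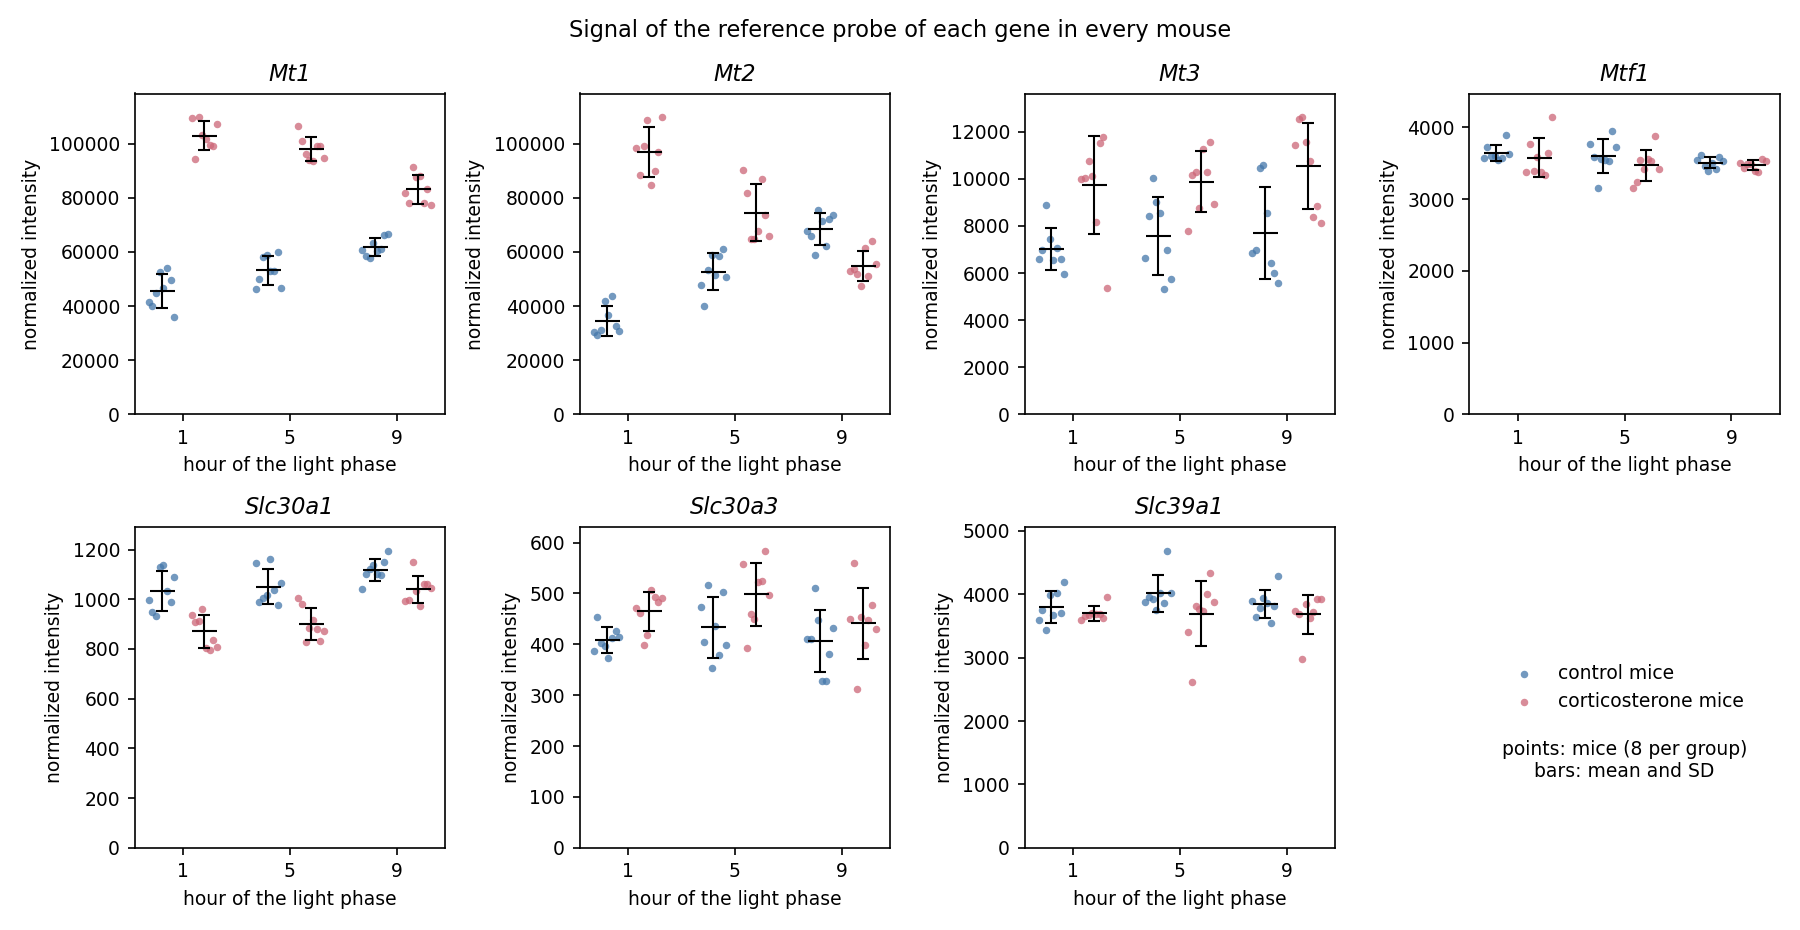
Normalized intensity (linear axis from 0) of the reference probe of each of the 7 genes in every mouse, by hour of the light phase; points are mice, 8 per group, with control mice in blue and treated mice in red, and bars give the mean and SD. Treated mice lie above all control mice for *Mt1* at each hour, whereas the *Mt2* groups approach each other and change places by hour 9.

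**Figure D2:**
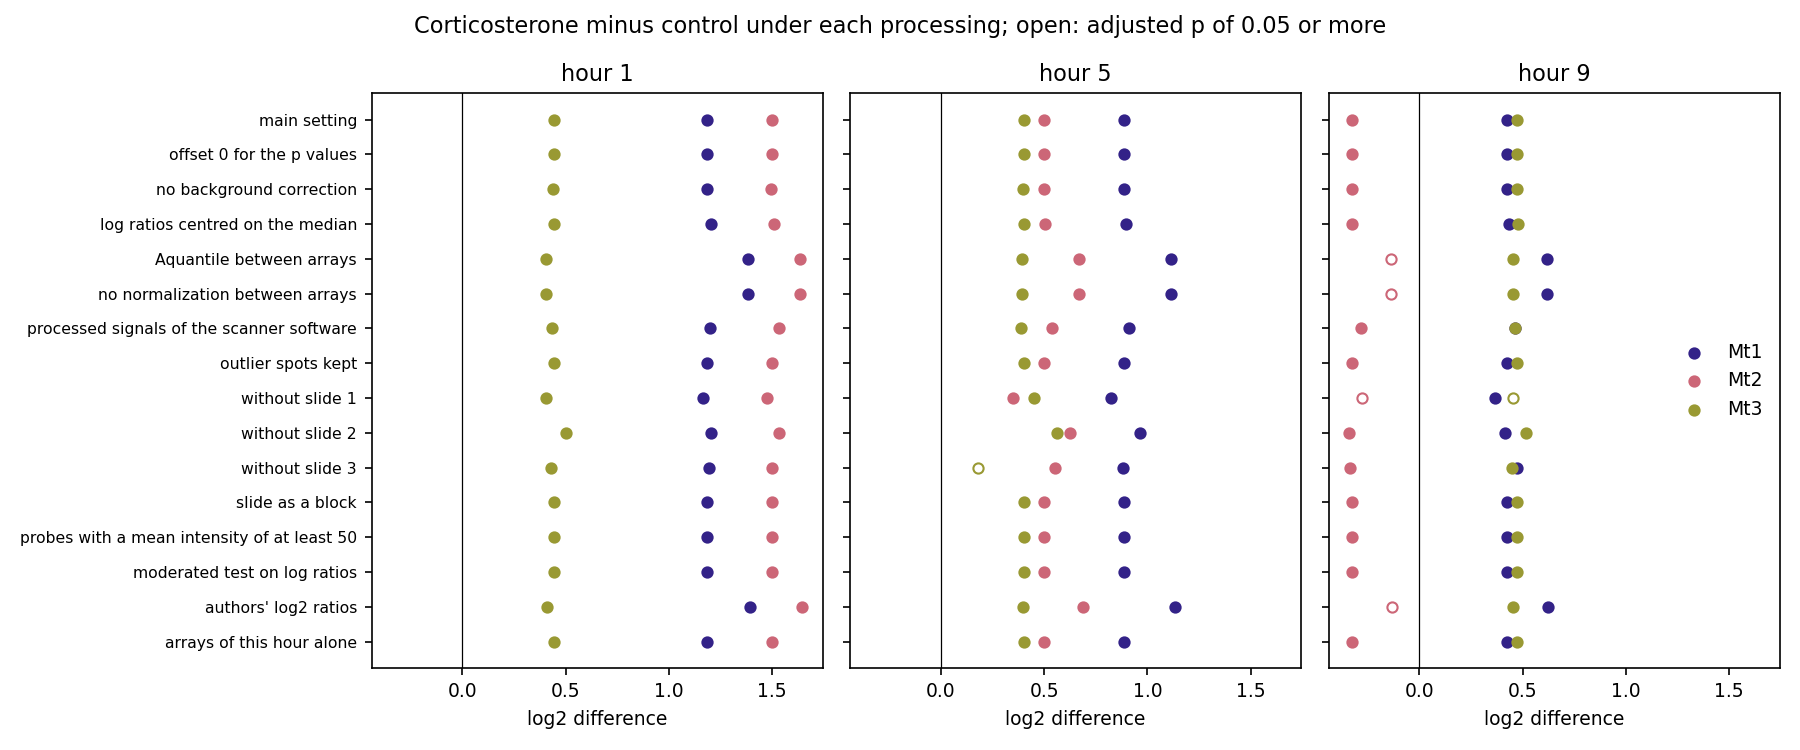
Log2 difference between treated and control mice (horizontal axis) for *Mt1*, *Mt2* and *Mt3* at hours 1, 5 and 9 under the main setting and each alternative processing (rows); open symbols missed the threshold. All symbols lie right of 0 in hours 1 and 5, and in hour 9 those of *Mt2* lie between -0.34 and -0.13.

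The change of the corticosterone effect between hours, in which a constant dye difference cancels, ranked *Mt2* first by p value of 56605 probes in all 3 pairs of hours. The effect on *Mt2* changed by -1.0 ± 0.112 on the log2 scale from hour 1 to hour 5 (adjusted p = 1.72e-07), by -0.82 ± 0.112 from hour 5 to hour 9 (adjusted p = 4.69e-05) and by -1.82 ± 0.112 from hour 1 to hour 9 (adjusted p = 6.62e-17). The effect on *Mt1* changed by -0.76 ± 0.081 from hour 1 to hour 9 (adjusted p = 2.55e-09), where it ranked number 9, and by -0.46 ± 0.081 from hour 5 to hour 9 (adjusted p = 0.00138). From hour 1 to hour 5 the difference for *Mt1* was -0.30 ± 0.081 and missed the threshold (adjusted p = 0.268). The changes from hour 5 to hour 9 missed the threshold without slide 1 for both genes, at -0.63 with an adjusted p of 0.194 for *Mt2* and -0.46 with 0.31 for *Mt1*, and the one for *Mt1* also without slide 3, at -0.41 with 0.111. The changes from hour 1 to hour 9 passed under all 14 alternatives, between -1.87 and -1.75 for *Mt2* and between -0.80 and -0.72 for *Mt1*.

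On single arrays, the log2 ratio of *Mt1* minus that of *Mt2* was -0.32 ± 0.15 (SD) in hour 1 and negative on all 8 arrays. It was 0.39 ± 0.199 in hour 5 and positive on 7 of 8 arrays, and 0.75 ± 0.191 in hour 9 and positive on all 8, between 0.50 and 1.14. This comparison was added after the values were seen and was not tested.

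Both sides of the ratio moved. In control mice *Mt2* rose through the light phase, by 0.61 ± 0.092 from hour 1 to hour 5 (adjusted p = 0.000773) and by 1.00 ± 0.092 from hour 1 to hour 9 (adjusted p = 4.92e-10), and the median intensity went from 31851 to 69652. Only 3 of 56605 probes (0.00530%) passed in control mice from hour 1 to hour 5, and *Mt2* had the smallest p of them. The other 2 belonged to *Rbm3*, a cold-inducible RNA-binding protein, at -0.85 ± 0.156, and *Slc15a3*, a peptide and histidine transporter, at 0.54 ± 0.100. *Mt2* no longer passed when slide 2 or slide 3 was left out, with values of 0.63 (adjusted p = 0.0799) and 0.57 (adjusted p = 0.183). From hour 1 to hour 9, 0.537% of probes passed and *Mt2* again ranked first. *Mt1* rose by 0.45 ± 0.067 over the same span (adjusted p = 4.79e-05, rank 8), with no overlap between the mice of the 2 hours, and missed the threshold without slide 1 at 0.45 (adjusted p = 0.0643). Within slides the control rise from hour 1 to hour 9 was between 0.88 and 1.16 for *Mt2* and between 0.34 and 0.56 for *Mt1*. From hour 5 to hour 9, where 0.0336% of probes passed, 0 of 9 member probes passed in limma's separate channel test or under any alternative, and 3 had an unadjusted p under 0.05.

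In treated mice the same 2 genes fell. *Mt2* fell by 0.39 ± 0.092 (log2) from hour 1 to hour 5 (adjusted p = 0.0218), by 0.44 ± 0.092 from hour 5 to hour 9 (adjusted p = 0.00648) and by 0.83 ± 0.092 from hour 1 to hour 9 (adjusted p = 5.73e-09). The mice of hours 1 and 9 did not overlap. *Mt1* fell by 0.31 ± 0.067 from hour 1 to hour 9 (adjusted p = 0.00121), again without overlap, and its differences over the shorter spans were -0.07 (adjusted p = 0.777) and -0.24 (adjusted p = 0.0612). The second of these passed where arrays were normalized by equalizing their average intensities alone (-0.29, adjusted p = 0.000625). The first of the falls of *Mt2* missed the threshold without slide 2 (-0.28, adjusted p = 0.428), without slide 3 (-0.38, adjusted p = 0.31) and without normalization between arrays (-0.42, adjusted p = 0.0746), the second without slide 1 (-0.29, adjusted p = 0.581). The fall of *Mt1* from hour 1 to hour 9 missed it without slide 2 (-0.29, adjusted p = 0.0573).

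*Mt3* stood apart from *Mt1* and *Mt2*: its mean log2 ratio of treated to control mice lay between 0.40 and 0.47 at each hour. In hour 1 its intensity ran from 5970 to 8894 with a median of 6801 in control mice and from 5375 to 11792 with a median of 10076 in treated mice, and in hour 9 from 5582 to 10581 with a median of 6916 and from 8143 to 12613 with a median of 11090. The groups overlapped at all 3 hours, and the lowest mouse of hour 1 was a treated one. The log2 difference was 0.44 ± 0.118 in hour 1 (adjusted p = 0.00477), 0.40 ± 0.118 in hour 5 (adjusted p = 0.0104) and 0.47 ± 0.118 in hour 9 (adjusted p = 0.00328), and it was positive on 7, 7 and 8 of 8 arrays. The change of the effect from hour 1 to hour 9 was 0.03, with a 95% interval from -0.30 to 0.37 and an adjusted p of 1. Since no change of this difference between hours passed and all treated mice carried Cy5, an effect on *Mt3* and a dye difference of its probe cannot be told apart. The value in hour 5 was 0.18 (adjusted p = 0.37) without slide 3 and ran from 0.13 to 0.77 between slides, and that in hour 9 missed the threshold without slide 1 at 0.45 (adjusted p = 0.108). No change of *Mt3* between hours passed in either group of mice, with differences from 0.01 to 0.13.

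Over the 9 member probes, 4 passed in hour 1 (3 higher and 1 lower), where 17.5% of all probes passed, 4 in hour 5 (3 higher and 1 lower), where 18.1% passed, and 3 in hour 9 (2 higher and 1 lower), where 14.0% passed. The median log2 difference of the 9 probes was -0.03, -0.05 and -0.07 at the 3 hours and that of the 7 reference probes, 1 per gene, was 0.19, 0.20 and -0.01, beside a median over all probes below 0.001 in size at each hour. In the change of the corticosterone effect, 1 of 9 member probes passed from hour 1 to hour 5 (0.0389% of all probes), 2 from hour 1 to hour 9 (0.827%) and 2 from hour 5 to hour 9 (0.0830%), all of them *Mt1* or *Mt2*.

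**Figure D3:**
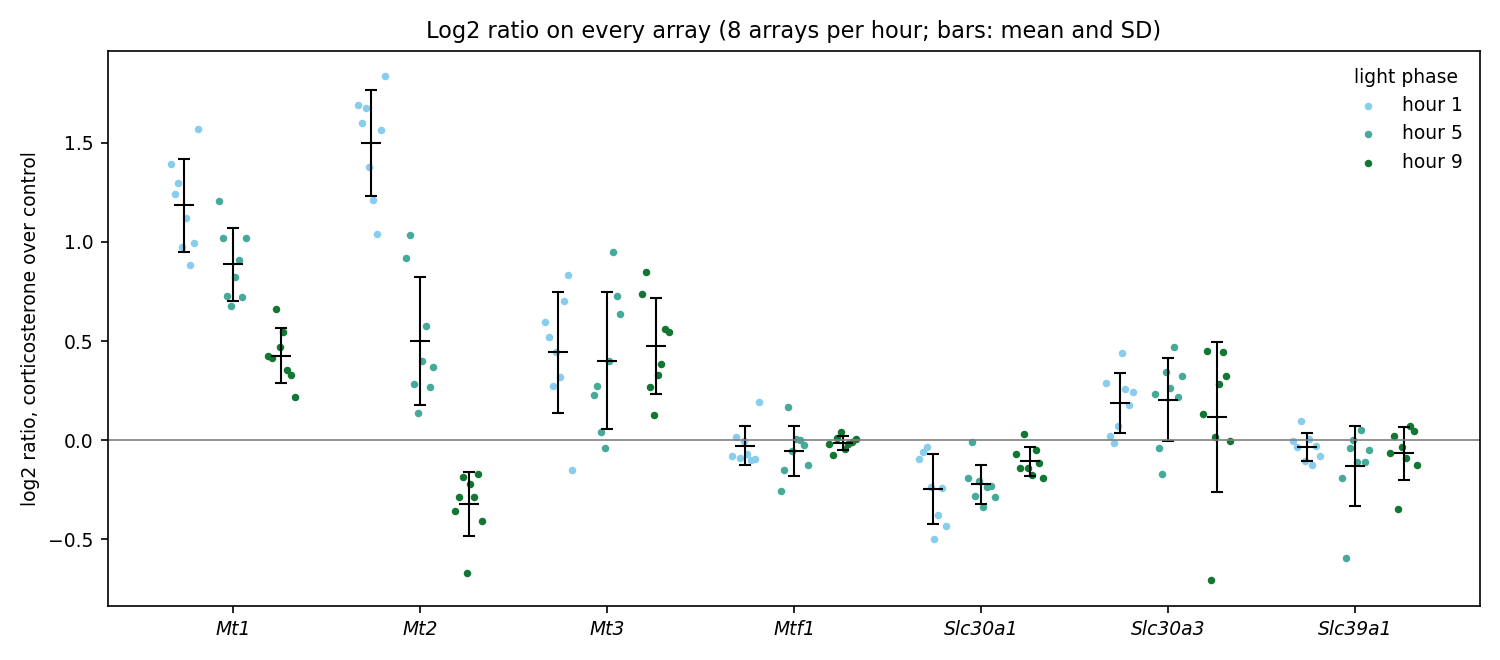
Log2 ratio of treated over control mouse on each array (vertical axis) for the reference probe of each gene, with 8 arrays per hour as points and mean and SD as bars. The mean ratios of *Mt1* and *Mt2* are lower at each later hour, although the first of these changes missed the threshold for *Mt1*. The ratios of *Mt2* fall below 0 in hour 9, whereas those of *Mt3* keep a mean between 0.40 and 0.47.

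*Mtf1*, which encodes the zinc-sensing activator of *Mt1*, *Mt2* and *Slc30a1*, showed no difference that passed between treated and control mice at any of its 3 probes. Its reference probe ran from 3543 to 3889 with a median of 3603 in control mice and from 3332 to 4141 with a median of 3490 in treated mice of hour 1. The log2 differences of this probe were -0.03, -0.05 and -0.01 in hours 1, 5 and 9, with 95% intervals that together ran from -0.13 to 0.06. In hour 5 this probe passed with the processed signals that the scanner software writes (-0.08, adjusted p = 0.0272). The other 2 *Mtf1* probes differed by between -0.11 and -0.03, with the lowest bound at -0.25. The dimmest of the 3 rose in control mice from hour 1 to hour 9 by 0.27 ± 0.071 (adjusted p = 0.0476), and the brighter 2 were at -0.05 and -0.03 over the same span. That rise passed under 6 of 12 alternatives, with values from 0.19 to 0.38 and adjusted p values up to 0.801, the highest of them without slide 1 (0.25). It missed the threshold without slide 3 too (0.19, adjusted p = 0.488) and with the slide as a block (0.27, adjusted p = 0.0678). In treated mice the same probe differed by 0.22 ± 0.071 over this span (adjusted p = 0.0594), and there it passed with processed signals (adjusted p = 0.0177), without slide 2 (adjusted p = 0.0385) and among probes with a mean intensity of at least 50 (adjusted p = 0.0476).

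*Slc30a1*, the plasma membrane exporter, was the member that was lower in treated mice while *Mt1* and *Mt2* were higher. In hour 1 its intensity ran from 934 to 1139 with a median of 1017 in control mice and from 796 to 961 with a median of 872 in treated mice. The log2 difference was -0.25 ± 0.045 (adjusted p = 3.02e-05) in hour 1 and -0.22 ± 0.045 (adjusted p = 0.000135) in hour 5, negative on 8 of 8 arrays each time, and both passed under all 15 alternatives. In hour 9 it was -0.11 ± 0.045 (adjusted p = 0.0752), negative on 7 of 8 arrays, and passed with the arrays of this hour fitted alone (adjusted p = 0.0357) and with processed signals (adjusted p = 0.0457). In treated mice *Slc30a1* rose by 0.26 ± 0.052 from hour 1 to hour 9 (adjusted p = 0.000444) without overlap of the mice, to a median of 1039 from 872, and by 0.21 ± 0.052 from hour 5 to hour 9 (adjusted p = 0.0221). The longer rise missed the threshold without slide 3 (0.19, adjusted p = 0.129) and without normalization between arrays (0.28, adjusted p = 0.0605). The shorter one missed it under 5 of 12 alternatives, with adjusted p values up to 0.357, among them the fits without slide 1, slide 2 and slide 3 (0.25, 0.20 and 0.17). In control mice the difference over the light phase was 0.12 ± 0.052 (adjusted p = 0.352). The change of the corticosterone effect on *Slc30a1* from hour 1 to hour 9 was 0.14, with a 95% interval from 0.01 to 0.27 for the single probe and an adjusted p of 0.544 over all probes. No change of this effect between hours passed, and all treated mice carried Cy5. An effect on *Slc30a1* and a dye difference of its probe therefore cannot be told apart.

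*Slc30a3*, the vesicular zinc transporter, was not called at any hour. Its intensity in hour 1 ran from 373 to 454 with a median of 408 in control mice and from 398 to 506 with a median of 477 in treated mice, and the groups overlapped. The log2 differences were 0.19 ± 0.082 (adjusted p = 0.0955), 0.20 ± 0.082 (adjusted p = 0.0631) and 0.12 ± 0.082 (adjusted p = 0.352). In hour 9, 1 array of slide 1 (replicate 3) stood at -0.71 and the other 7 between -0.0041 and 0.45, and the means within slides ran from -0.03 to 0.37. It passed in hour 1 with processed signals (adjusted p = 0.043) or with the arrays of this hour alone (adjusted p = 0.0146), and in hour 5 without slide 1 (adjusted p = 0.0302) or among probes with a mean intensity of at least 50 (adjusted p = 0.0454). *Slc39a1*, the importer, differed by -0.03, -0.13 and -0.07 at the 3 hours with adjusted p values of 0.7, 0.072 and 0.43. In hour 5, 1 array of slide 1 (replicate 2) stood at -0.60, the means within slides 1, 2 and 3 were -0.39, -0.05 and -0.04, and the difference without slide 1 was -0.04 (adjusted p = 0.566). Its 95% intervals together ran from -0.24 to 0.08, and in hour 5 it passed with processed signals (adjusted p = 0.0171) and among probes with a mean intensity of at least 50 (adjusted p = 0.0486).

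The corticosterone effects of *Mt1* and *Mt2* were set against those of *Mt3* and of the 3 zinc transporters on the same arrays, with exact permutation tests of 8 pairs of genes at each hour and for the change from hour 1 to hour 9, 32 tests in all. Of these, 27 had an adjusted p under 0.05 over the family. A dye difference particular to a probe enters each difference at a single hour, and the p values there do not measure it. It cancels in the change from hour 1 to hour 9. In hour 1 all 8 differences were positive on 8 of 8 arrays, from 0.74 ± 0.5 (SD) for *Mt1* minus *Mt3* to 1.75 ± 0.243 for *Mt2* minus *Slc30a1*, each with an exact two-sided p of 0.0078125, the smallest that 8 arrays allow, and an adjusted p of 0.01. In hour 9 *Mt2* was below *Mt3* by a mean of -0.80 ± 0.245 on 8 of 8 arrays (exact permutation test, adjusted p = 0.01) and below *Slc30a1* by -0.22 ± 0.153 on 8 of 8 arrays (exact permutation test, adjusted p = 0.01). The second of these was -0.04 (adjusted p = 0.461) without normalization between arrays. *Mt2* was also below *Slc39a1* by -0.26 ± 0.224, on 7 of 8 arrays (exact permutation test, adjusted p = 0.0288), and that difference was -0.06 (adjusted p = 0.427) without normalization between arrays and -0.19 (adjusted p = 0.0667) with processed signals. *Mt1* in hour 9 was above *Slc30a1* by 0.53 ± 0.116 and above *Slc39a1* by 0.49 ± 0.242 on 8 of 8 arrays, with an adjusted p of 0.01 in the exact permutation test for each.

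The 5 tests that missed the threshold were *Mt1* against *Mt3* in hour 9 (-0.05, adjusted p = 0.656), *Mt1* against *Slc30a3* in hour 9 (0.31, adjusted p = 0.0603), *Mt2* against *Mt3* in hour 5 (0.10, adjusted p = 0.581), and *Mt2* against *Slc30a3* in hour 5 (0.29, adjusted p = 0.1) and hour 9 (-0.44, adjusted p = 0.0536). The 3 tests against *Slc30a3* passed under some alternatives. *Mt1* in hour 9 passed with offset 50 (0.32, adjusted p = 0.0259), with processed signals (0.34, adjusted p = 0.037), and without normalization between arrays or with the authors' log2 ratios (0.51 and an adjusted p of 0.00962 each). *Mt2* in hour 5 passed with processed signals (0.35, adjusted p = 0.0288), without normalization between arrays (0.47, adjusted p = 0.0185) and with the authors' log2 ratios (0.49, adjusted p = 0.0185). *Mt2* in hour 9 passed without background correction (-0.43, adjusted p = 0.0278) and with offset 50 (-0.43, adjusted p = 0.0259). For the change from hour 1 to hour 9 all 8 tests passed. The effect on *Mt2* changed by between -1.96 and -1.76 on the log2 scale relative to the 4 other genes, and that on *Mt1* by between -0.90 and -0.69, with adjusted p values from 0.000995 to 0.01 in exact permutation tests over 16 arrays. With a slide left out, between 4 and 6 arrays remained per hour, which left an exact test at a single hour little or no room to pass after adjustment, and none did. The differences in hour 1 kept their direction, and that of *Mt2* against *Slc30a1* was 1.78, 1.78 and 1.69 without slides 1, 2 and 3. The change also missed it for *Mt1* against *Mt3* without slide 1 (-0.85, exact permutation test, adjusted p = 0.0508) and slide 2 (-0.80, adjusted p = 0.0741), and against *Slc30a3* without slide 2 (-0.62, adjusted p = 0.0741) and slide 3 (-0.66, adjusted p = 0.0769).

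Control mice of the same hour that had more *Mt1* tended to have more *Mt2*. Over the 24 control mice, after the mean of each hour was taken out, the 2 genes correlated with Pearson's r = 0.756 (permutation p = 1e-05, the smallest that the permutations can give, adjusted p = 6e-05) and Spearman's rho = 0.798 (permutation p = 2e-05, adjusted p = 0.00012). Without the 2 mice farthest from the median of *Mt1*, r was 0.729 (permutation p = 9e-05). Within slides of 8 control mice, r was 0.617, 0.796 and 0.773. Over the 24 treated mice r was 0.440 (permutation p = 0.0320, adjusted p = 0.0961) and rho was 0.437 (permutation p = 0.0332, adjusted p = 0.0996), and without the 2 farthest mice r was 0.434 (permutation p = 0.0440). With slide means also taken out, r was 0.688 in control mice (adjusted p = 0.0009) and 0.497 in treated mice (adjusted p = 0.0419), where rho was 0.382 (adjusted p = 0.132). The other 4 of the 6 relations computed, those with *Mt3*, had r between -0.283 and 0.167 and adjusted p values from 0.364 to 0.965 in the permutation test. With slide means also taken out, their r lay between -0.274 and 0.352, the highest for *Mt1* and *Mt3* in control mice. The adjusted p values then ran from 0.182 to 0.656 in the permutation test. Whether the probes of *Mt1* and *Mt2* bind transcripts of both genes was not tested, since the sequences of the probes were not used here.

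**Figure D4:**
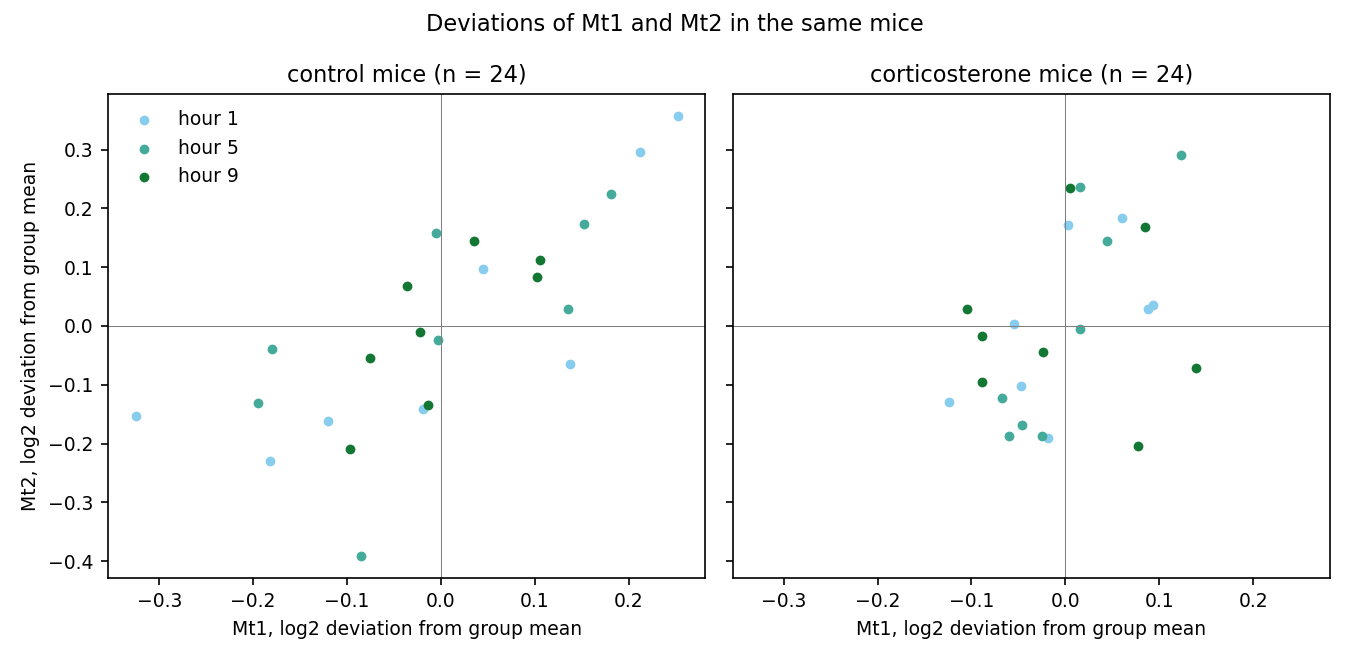
Deviation of *Mt2* (vertical axis) against deviation of *Mt1* (horizontal axis) from the mean of its group, in log2 units, for 24 control mice on the left and 24 treated mice on the right; colours give the hour. The points of control mice follow a rising line, with r = 0.756, and those of treated mice follow one less closely, with r = 0.440. The deviations of *Mt1* ran from -0.325 to 0.253 in control mice and from -0.124 to 0.139 in treated mice. The 2 values of r were not tested against each other.

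The genes whose pattern over all 48 channels was most like that of each of the 2 genes were looked up among 15436 named genes with a mean intensity of at least 50, which is a description, since channels share treatment, hour and dye. For *Mt1* they were *Aldh1l1* (r = 0.893), an astrocyte enzyme of folate metabolism, *Fam107a* (r = 0.891), *Sult1a1* (r = 0.885), a sulfotransferase, *Wipf3* (r = 0.879) and *Timp4* (r = 0.875), an inhibitor of matrix metalloproteinases. For *Mt2* they were *Mt1* (r = 0.819), *Ramp2* (r = 0.784), a receptor partner of adrenomedullin, *Atp2c2* (r = 0.767), *Gm4208* (r = 0.754) and *Slc2a1* (r = 0.746), the glucose transporter of the blood-brain barrier. The log2 difference of *Slc2a1* between treated and control mice was 0.92, 0.32 and -0.08 at the 3 hours, and that of *Aldh1l1* was 0.57, 0.51 and 0.41.

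Another *Mt1* probe (A_52_P423810) was assigned to this gene by the study's annotation alone and was not among the 9 found by accession. It was chosen after its values were seen. Its signal was low, with intensities from 68.0 to 117 and a median of 76.8 in control mice of hour 1 and from 106 to 220 with a median of 159 in treated mice. The log2 difference was 0.95 ± 0.113 in hour 1 (adjusted p = 2.81e-08), -0.29 ± 0.113 in hour 5 (adjusted p = 0.0849) and -0.32 ± 0.113 in hour 9 (adjusted p = 0.0463). The last of these passed under 7 of 15 alternatives, with values from -0.42 to -0.20, and missed the threshold without slide 1 (-0.39, adjusted p = 0.201), slide 2 (-0.33, adjusted p = 0.0776) and slide 3 (-0.25, adjusted p = 0.123). The corticosterone effect at this probe changed by -1.24 ± 0.159 from hour 1 to hour 5 (adjusted p = 1.58e-05) and by -1.26 ± 0.159 from hour 1 to hour 9 (adjusted p = 6.53e-07), and both passed under all 14 alternatives. The *Mt1* probe found by accession was positive on 8 of 8 arrays in hour 5, whereas this one was positive on 1 of 8.

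Of the other genes of zinc handling, 8 further SLC30 transporters, 13 further SLC39 transporters, *Mt4* and the zinc-sensing receptor gene *Gpr39* were measured, and 20 of these 23 had a mean intensity of at least 50. In treated mice 1 gene was higher and 4 were lower in hour 1, 1 was higher and 3 were lower in hour 5, and 1 was higher and 1 lower in hour 9. These shares compare with 17.5%, 18.1% and 14.0% of all probes. The median log2 difference of the 23 genes was between -0.03 and 0 at each hour.

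Among the exporters, *Slc30a6*, which encodes a transporter of the secretory pathway, was lower by a log2 difference of -0.16 ± 0.041 in hour 1 (adjusted p = 0.00224) and -0.18 ± 0.041 in hour 5 (adjusted p = 0.00054). Among the importers, *Slc39a7*, which releases zinc from the endoplasmic reticulum, was lower at all 3 hours by between -0.15 and -0.14, with adjusted p values from 0.00188 to 0.00406. *Slc39a11* differed by -0.15 (adjusted p = 0.0176) and -0.16 (adjusted p = 0.0106) in hours 1 and 5. *Slc39a8*, a plasma membrane importer of zinc, was lower by -0.33 ± 0.086 in hour 1 (adjusted p = 0.00624), and *Slc39a14*, a relative that also carries iron, was higher by 0.18 ± 0.053 (adjusted p = 0.0081). *Mt4*, a metallothionein of squamous epithelia whose probe had a mean intensity of 67.0, was higher in hour 5 at 0.27 ± 0.087 (adjusted p = 0.0285). The third gene that was higher, *Slc30a8* in hour 9, stood well above background in 3 of 48 channels. No change of the corticosterone effect between hours passed for any of these genes, and all treated mice carried Cy5. An effect on such a gene and a dye difference of its probe therefore cannot be told apart.

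**Figure D5:**
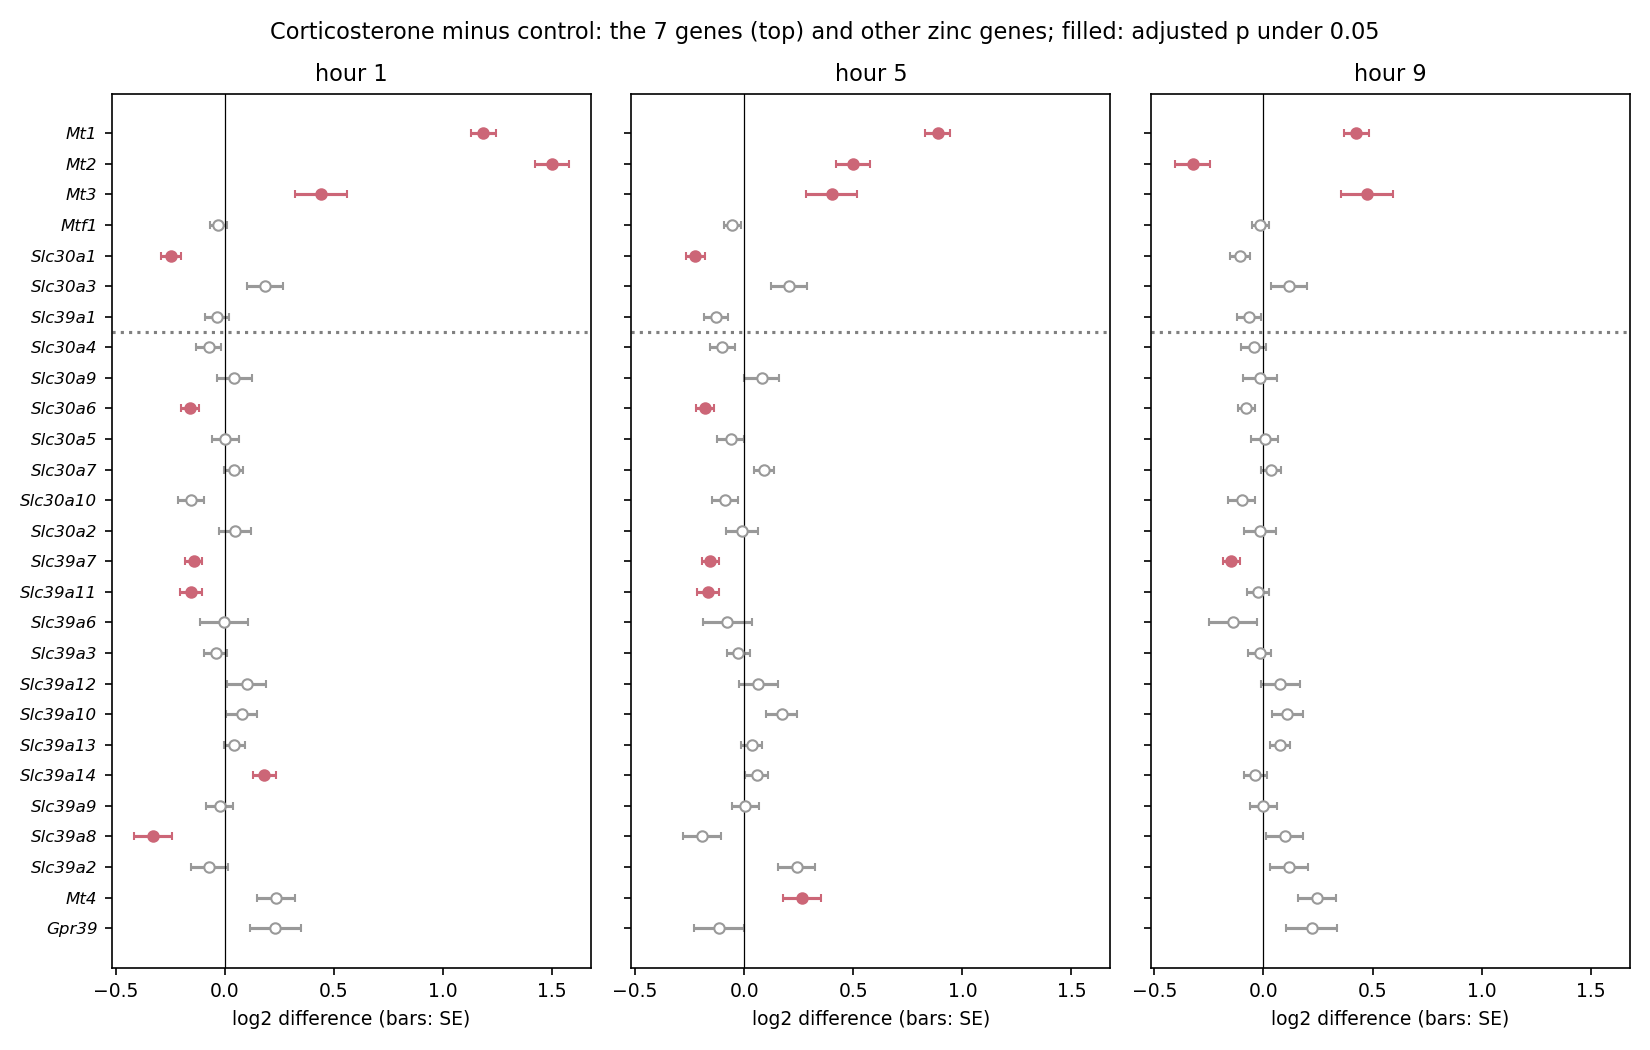
Log2 difference between treated and control mice (horizontal axis, bars give the SE) at hours 1, 5 and 9 for the 7 genes, above the dotted line, and for 20 other zinc genes with a mean intensity of at least 50, below it; filled points passed the threshold. The points of *Mt1* and *Mt2* in hours 1 and 5 lie farther right than those of all other genes drawn, and the genes below the line lie between -0.33 and 0.27.

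Between hours, 0 of these 23 genes passed in control mice in any pair of hours in limma's separate channel test, where between 2 and 4 of the 8 exporters, at most 1 of the 13 importers and neither of the other genes had an unadjusted p under 0.05. In treated mice 3 rose from hour 1 to hour 9, *Slc39a8* by 0.38 ± 0.101 (adjusted p = 0.0114), *Slc30a10*, a manganese exporter, by 0.30 ± 0.070 (adjusted p = 0.00339) and *Slc30a7*, a transporter of the Golgi apparatus, by 0.16 ± 0.052 (adjusted p = 0.0469). Over all probes 4.02% passed in that comparison, and 3 of 9 member probes did, namely *Mt1*, *Mt2* and *Slc30a1*. Between hours 1 and 5, 1 of 9 member probes passed in treated mice (0.548% of all probes), and between hours 5 and 9, 2 did (0.661%). In the change of the corticosterone effect 0 of the 23 genes passed in any pair of hours in limma's test, and at most 1 exporter, 2 importers and 1 other gene had an unadjusted p under 0.05.

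Markers of the cell types of the hippocampus and its surroundings were followed in the same samples, astrocytes first, since they are known to make metallothioneins. Bulk tissue does not tell fewer cells of a type from less RNA per cell. Of 8 astrocyte markers, 2 were higher and 1 lower in hour 1, and 2 were higher and 2 lower in hour 5 and in hour 9. *Aldh1l1* was higher at all 3 hours and *Aqp4* lower, the latter at -0.76, -0.86 and -0.71, and *Gfap* differed by between -0.06 and 0.04. The summed intensity of these markers in hour 1 ran from 102509 to 126435 in control mice and from 117609 to 138653 in treated mice. Of 6 markers of meninges, 0 passed at any hour in limma's test and 1, 3 and 0 had an unadjusted p under 0.05, with a sum in hour 1 from 6249 to 11487 in control mice and from 4865 to 9505 in treated mice. Of 8 markers of choroid plexus, *Cldn2*, with a mean intensity of 20.1, was higher in hour 9 and the other 7 did not pass, and *Ttr*, the defining marker, had a mean intensity of 360. Of 6 endothelial markers, 2 were higher and 3 lower in hour 1, 1 was higher and 2 were lower in hour 5, and 1 was higher and 1 lower in hour 9. Endothelial markers also moved between hours. In control mice *Cldn5*, a tight junction protein, fell by 0.34 ± 0.079 from hour 1 to hour 9 (adjusted p = 0.0202), and 1 marker was lower in hour 9 than in hour 5. In treated mice 2 of the 6 rose from hour 1 to hour 9, where 5 had an unadjusted p under 0.05, 1 rose from hour 1 to hour 5 and 1 from hour 5 to hour 9. In the change of the corticosterone effect from hour 1 to hour 9, 1 was higher and 1 lower, with a median of 0.26. Of the 8 astrocyte markers, 1 fell in treated mice from hour 1 to hour 5, and 0 passed in limma's test in the other comparisons between hours, where between 0 and 4 had an unadjusted p under 0.05. Markers of meninges and choroid plexus had 0 calls between hours, with at most 1 marker of choroid plexus and 0 of meninges at an unadjusted p under 0.05. The median log2 differences of the lists were 0.04, -0.07 and -0.09 for astrocytes, -0.08, -0.27 and -0.13 for meninges, 0.04, -0.07 and -0.03 for choroid plexus and -0.25, -0.11 and 0.11 for endothelial cells at the 3 hours. Neuronal markers bear on *Slc30a3*, a gene of mossy fibres, and on *Mt3*. Of 5 markers of dentate granule cells, *Dsp* was higher in treated mice in hour 1 (0.33, adjusted p = 0.0316) and *C1ql2* in hour 9 (0.29, adjusted p = 0.00283), with 3, 2 and 1 of the 5 at an unadjusted p under 0.05 in limma's test and medians of 0.18, 0.14 and 0.00 at the 3 hours. Their sum in hour 1 ran from 14524 to 16713 in control mice and from 15251 to 19608 in treated mice, and in hour 5 from 9798 to 17195 and from 9312 to 19541. Of 5 general neuronal markers, *Snap25* (0.22) and *Rbfox3* (0.14) were higher in hour 5 and *Rbfox3* (0.11) in hour 9, and 0 passed in hour 1, where 1 had an unadjusted p under 0.05. Of 4 markers of CA pyramidal cells 0 passed in limma's test at any hour, and 0, 0 and 1 had an unadjusted p under 0.05. Of 6 microglial markers, 3, 2 and 1 were lower at the 3 hours and none higher. In treated mice 1 microglial marker rose from hour 1 to hour 5 and 2 rose from hour 1 to hour 9. Over the longer span 1 dentate granule cell marker fell and 1 CA pyramidal cell marker rose in treated mice. Of 6 oligodendrocyte markers, 2 were higher and 2 lower at each hour, with median log2 differences of -0.05, -0.15 and -0.08. Their summed intensity in hour 5 ran from 56274 to 79828 in control mice and from 53812 to 69115 in treated mice. None of them passed between hours in limma's test, where between 0 and 3 had an unadjusted p under 0.05. The part of cell composition in the results was not tested.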

How the data were processed

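Each mouse was measured in 1 channel of 24 two-colour arrays (Agilent). The authors deposited scanner output of Agilent Feature Extraction 10.7.3.1, whose intensity columns (median signal and median background per spot) are on a linear scale and not normalized, and a table of processed log2 values without stated scale. Set against ratios computed here, the deposited log2 table differed by a median of 0.00119 from treated over control after background correction with offset 50 and loess alone. Its column medians lay between 0.0024 and 0.00889, and its direction is Cy5 over Cy3.

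Following the study's methods, limma 3.58.1 in R 4.3.3 was used: normexp background correction, loess within arrays with control spots at weight 0, and quantile normalization between arrays. Outlier spots (80 to 276 per array) were set missing, probe copies averaged, and 77 probes lacking a value on an array filled with the mean of the other arrays of that hour. The separate channel test (intraspot correlation 0.279) gave p values with offset 50, adjusted by Benjamini-Hochberg over 56605 probes and called under 0.05, and log2 differences, SE and intensities with offset 0. Accessions of 34566 probes matched RefSeq symbols (GRCm38.p6). Statements between members used exact sign-change or relabelling tests, and correlations 100000 permutations. The code was tested on simulated data.

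Every member probe was accounted for. Other zinc genes were counted by their brightest probe and named when called. The genes, lists and rules were chosen with earlier results of these data known. Alternatives changed the offset, background correction, normalization, starting signal, probe filter, slides or test. The number of arrays limits the precision.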

Additional observations from a re-analysis of the deposited data

Results flagged for a closer look

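The corticosterone effect differed between hours, by the test of the change itself, for *Mt2* between hours 1 and 5 (-1.0), 1 and 9 (-1.82) and 5 and 9 (-0.82), for *Mt1* between hours 1 and 9 (-0.76) and 5 and 9 (-0.46), and for the further *Mt1* probe A_52_P423810 between hours 1 and 5 (-1.24) and 1 and 9 (-1.26), all on the log2 scale.

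Of 60 groups of 8 mice examined for a mouse far from the others by Dixon's criterion at the 95% level, 7 had one, where chance marks about 1 in 20. The groups share mice and arrays and are not independent, so an excess over chance was not tested. For the *Mtf1* probe A_52_P467266 these were a control mouse at 435 and a treated mouse at 381 on the same array of hour 5, with the nearest mice at 618 and 609, and a treated mouse at 698 in hour 9. For the *Mtf1* probe A_52_P236072 it was a treated mouse at 146 in hour 5. For *Slc39a1* they were a treated mouse at 3962 in hour 1, a control mouse at 4686 in hour 5 and a treated mouse at 2973 in hour 9, on the array where *Slc30a3* differed by -0.71. The value of 4686 came from the same array of hour 5 (replicate 7) as the *Mtf1* values of 435 and 381. That array had the most outlier spots, 276 against at most 198 on the other arrays, and the lowest share of Cy5 probes well above background, 64.0%. Its part in the results was not tested apart from leaving out its slide, slide 3. The *Slc39a1* values enter the exact tests of *Mt1* and *Mt2* against *Slc39a1*, and those tests were not run without these mice alone. None of the groups of *Mt1*, *Mt2*, *Mt3*, *Slc30a1* or *Slc30a3* had such a mouse.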

How the results depend on the processing

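No called difference of a member changed its direction under any alternative that was run. The counts of member probes called in the comparisons fell most where a slide was left out and fewer arrays were tested. Calls were also gained for corticosterone versus control, by *Slc30a3* in hour 1 and by *Slc30a1* in hour 9. In hour 5 the *Mtf1* reference probe and *Slc39a1* passed with processed signals. *Slc30a3* and *Slc39a1* passed in hour 5 among probes with a mean intensity of at least 50, and *Slc30a3* also without slide 1. In treated mice *Mt1* gained a call from hour 5 to hour 9 and the *Mtf1* probe A_52_P236072 from hour 1 to hour 9. Without slide 1 the count was 1 in place of 3 for corticosterone versus control in hour 9 and for control mice from hour 1 to hour 9, and 0 in place of 2 for treated mice from hour 5 to hour 9 and for the change of the effect from hour 5 to hour 9. Without slide 2 it was 0 in place of 1 for control mice and for treated mice from hour 1 to hour 5, and 1 in place of 2 for treated mice from hour 5 to hour 9. Without slide 3 it was 0 in place of 1 for the first 2 of these, 1 in place of 2 for the third, and 1 in place of 2 for the change of the effect from hour 5 to hour 9. With offset 0 for the p values it was 1 in place of 2 for treated mice from hour 5 to hour 9. Without normalization between arrays it was 0 in place of 1 for treated mice from hour 1 to hour 5 and 1 in place of 2 from hour 5 to hour 9, and the cause was not tested. The 27 exact tests that passed between members became 7, 6 and 7 without slides 1, 2 and 3, where the fewer arrays of an hour left the exact tests little or no room to pass. The correlations between mice that passed numbered 2 in place of 1 with slide means removed and without normalization between arrays. Fitting the slide as a block ended 1 call of a member found by accession, the *Mtf1* probe A_52_P236072 in control mice from hour 1 to hour 9 (0.27, adjusted p = 0.0678), where 2 probes passed in place of 3. *Mt1* and *Mt2* are among the brightest probes, ranking between 14 and 614 in every channel, and quantile normalization sets values by rank. Without it their hour 1 differences were 1.38 and 1.64.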

Other observations

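Of 4 genes known as direct targets of the glucocorticoid receptor, *Sgk1*, *Tsc22d3*, *Per1* and *Fkbp5*, all 4 were higher in treated mice in hour 1, by log2 differences from 0.27 to 0.93. In hour 5 *Per1* (0.20, adjusted p = 0.00114) and *Fkbp5* (0.31, adjusted p = 0.00441) were still higher. In hour 9 *Tsc22d3* (-0.58, adjusted p = 3.28e-05) and *Fkbp5* (-0.28, adjusted p = 0.0136) were lower. These values stand beside those of *Mt2*, which was higher in hours 1 and 5 and, with quantile normalization, lower in hour 9. They also stand beside those of *Mt1*, which at the probe found by accession was higher at all 3 hours.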
